A study of Sus scrofa with 24 samples.

Results

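The comparison described here sets 6 pieces of porcine aortic valve leaflet that were stretched cyclically with 5HT plus Fluox in the medium (serotonin and fluoxetine) against 6 pieces held static with the same agents. These 12 arrays, of 24 in the study, were taken by their titles, and 23999 probe sets other than controls were compared between them. All pieces were 15 by 10 mm, came from the middle of a cusp of domestic pigs aged 12 to 24 months, and were cultured for 24 h at 37 °C in medium with serum and ascorbic acid. Stretched pieces hung from sutured loops in a tensile bioreactor, whereas static pieces had no sutures, so mounting and stretch cannot be told apart. The other 12 pieces, 6 stretched and 6 static, received no agents and enter here only to show whether the stretch difference was another one. The doses, the strain and the frequency are not given in the sources used here. The labels call the arrays biological replicates, but leaflet pieces were randomised over the groups and it is not given which arrays share an animal, so the p-values measure the spread between these pieces.

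The aortic valve leaflet is a sheet of collagen, elastic fibre and proteoglycan, held by interstitial cells and covered by endothelium. Interstitial cells sense load through integrins and the actin cytoskeleton, and can take on a contractile, matrix-producing state. Serotonin acts on valve interstitial cells through the receptors HTR2A and HTR2B, and fluoxetine blocks SLC6A4, the transporter that takes serotonin into cells.

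Values are given on the log2 GCRMA scale of the arrays, on which values under 4 lie near the bottom, where differences are compressed and have no order. The array reads the 3′ and 5′ ends of GAPDH and EF1A, a difference that is larger in poorer RNA or cDNA. This 3′ to 5′ difference was 2.64 ± 1.07 on stretched arrays and 0.82 ± 0.11 on static arrays (SD, n = 6 each; exact two-sided permutation test, p = 0.00216, the smallest that 6 against 6 can give; adjusted p = 0.00325 over 6 array measures). No stretched array overlapped a static array, and stretched array 5 stood apart at 4.66. The 28S ribosomal RNA probe sets averaged 8.80 ± 0.47 on stretched arrays and 6.11 ± 0.66 on static arrays, and the hybridisation spikes, which are added in equal amount to each sample, averaged 12.78 ± 0.33 on stretched arrays and 11.52 ± 0.27 on static arrays (SD, n = 6 each; exact permutation test, adjusted p = 0.00325 for each). Stretched array 1 without agents stood apart from the other 5 of its group on the same measures. Its 3′ to 5′ difference was 0.98 (1.63 to 3.06 in the others), its 28S 6.73 (8.10 to 9.47) and its spikes 10.89 (11.96 to 13.30). Most comparisons with the response without agents are therefore given with and without this array. Results are given also from a fit that holds this difference as a covariate, although it runs with stretch itself, and directions are relative to the typical gene of an array. In bulk tissue, fewer cells of a type and less RNA per cell cannot be told apart.

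**Figure D1:**
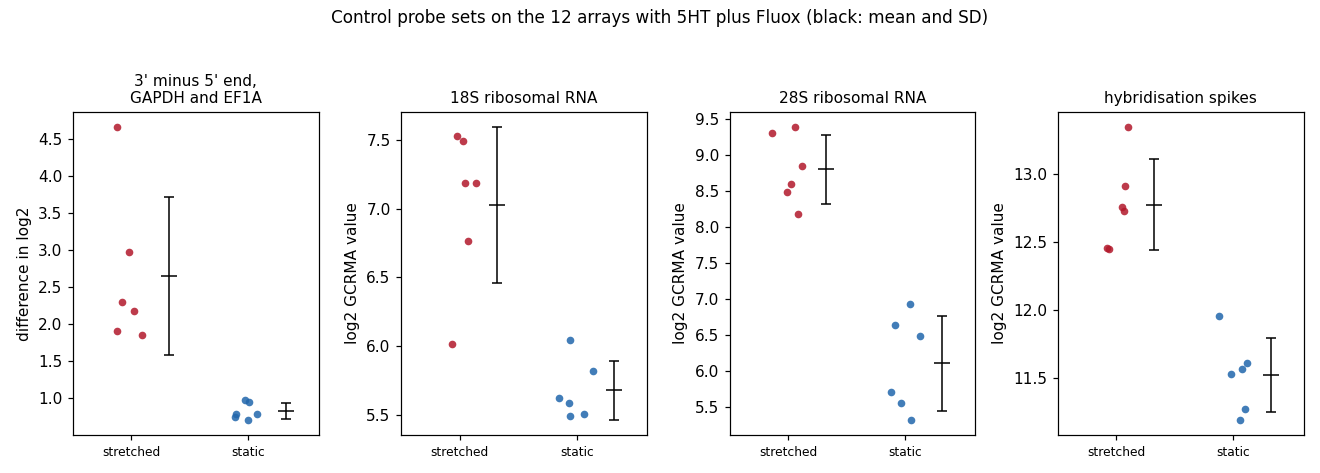
Control probe sets on each of the 12 arrays with 5HT plus Fluox, stretched (red) left of static (blue): the 3′ to 5′ difference in log2 and the log2 values of 18S, 28S and the hybridisation spikes. Points are arrays, and black marks are the mean and SD; stretched arrays lie above every static array for the 3′ to 5′ difference (at least 1.85 on stretched and at most 0.97 on static arrays), for 28S and for the spikes.

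Stretch with the agents present went with called differences in 12527 of the 23999 probe sets (52.2%). At a Benjamini-Hochberg adjusted p under 0.05, 6796 probe sets (28.3%) were higher and 5731 (23.9%) were lower in stretched tissue by limma. Dim probe sets, averaging below 5 in stretched and static tissue alike, made up 3273 of the higher calls and 663 of the lower ones. The median change of those 3273 was 0.54 log2. The other 12946 probe sets held 3523 higher and 5068 lower calls, so the excess of higher calls came from dim probe sets. Among the 6765 genes with a symbol, each taken at its brightest probe set, 1458 were higher (21.6%) and 2240 lower (33.1%). At least 2-fold changes were called in 835 genes that were higher (12.3%) and in 1593 that were lower (23.5%). Every stretched array lay above every static array in 1202 genes (17.8%) and below every static array in 1714 genes (25.3%). The median change of all genes was -0.13 log2. The split between directions moved with the scaling. Centring arrays on probe sets with a mean of at least 8 took the median change of all probe sets from 0.07 to 0.41 log2. It gave 12518 higher and 4302 lower probe sets, and quantile normalization gave 5094 and 5286. Centring on the hybridisation spikes, chosen after seeing the data, took that median to -1.19 log2 and gave 925 and 17594. With the 3′ to 5′ covariate 1709 probe sets were higher and 2012 lower, and without the arrays in which that difference exceeded 2.5 (stretched arrays 5 and 6 and 1 array without agents) 6143 were higher and 5428 lower.

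The largest rises among genes with a mean of at least 5 in both groups included the matrix proteins CILP, ASPN and PRELP and the fibroblast surface protein THY1, beside intracellular and membrane proteins. CILP, a matrix protein first known from cartilage, read 12.13 to 13.21 in stretched tissue (median 12.86), against 5.61 to 6.57 in static tissue (median 6.18), a change of 6.58 log2 (SE 0.66, limma adjusted p = 2.07e-07). FXYD7, a small regulator of the sodium pump, read 11.14 to 11.93 in stretched tissue (median 11.53), against 5.32 to 6.73 in static tissue (median 5.96), a change of 5.61 (SE 0.44, adjusted p = 9.47e-09). The groups lay far apart for both genes, with no overlap. MRAP2, an accessory protein of melanocortin receptors, changed by 5.38, COPZ2, a coatomer subunit, by 5.24, and the hydrolase gene ABHD14B by 4.61. The collagen-binding proteoglycans ASPN and PRELP changed by 4.65 and 4.38, and the fibroblast surface protein THY1 by 4.42 (SE 0.27, adjusted p = 3.65e-10). TSC22D3, a glucocorticoid-induced leucine zipper protein, changed by 4.49, and RARRES2, the secreted chemoattractant chemerin, by 4.40. The groups did not overlap in any of these 10 genes.

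The largest falls on the same terms included the immune genes SAA2, IL27RA, IL18BP, LIF and GBP1 and the metabolic genes ARG1, SLC2A1 and SCD. ARG1, the arginase that breaks down arginine, read 4.59 to 6.55 in stretched tissue (median 5.28), against 11.97 to 12.38 in static tissue (median 12.17), a change of -6.69 log2 (SE 0.89, limma adjusted p = 6.14e-06). SAA2, an acute-phase serum amyloid, read 7.82 to 10.36 in stretched tissue (median 9.65), against 14.40 to 14.53 in static tissue (median 14.46), a change of -5.08 (SE 0.41, adjusted p = 1.39e-08); its other probe set read -0.47 (adjusted p = 0.337). Static arrays were tightly grouped for both genes, and stretched arrays were lower and more spread. The cytokine receptor IL27RA changed by -4.86 and C1H15orf48 by -4.20. IL18BP, a secreted inhibitor of interleukin-18, changed by -5.29 (SE 1.33), the cytokine LIF by -4.46 (SE 1.34), the interferon-induced GTPase GBP1 by -4.09 (SE 1.02) and WDR37 by -3.95 (SE 0.85). Those 4 had wide spreads on stretched arrays and lost their call with the 3′ to 5′ covariate (adjusted p = 0.726, 0.927, 0.592 and 0.411 in that order). SLC2A1 and SCD, the remaining of the 10 falls, are given below; the groups overlapped only in GBP1, where 4 of 6 stretched arrays were below all static ones.

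Several genes were near the bottom of the scale in one group and clearly measured in the other, so that their changes are compressed and are given in no order. On all stretched arrays under 4, but measured in static tissue, were MMP1, the interstitial collagenase (7.39 to 12.37 on static arrays), the endothelial surface protein ECSCR (9.75 to 10.63), the cytidine deaminase CDA (8.68 to 9.19) and the lactate exporter SLC16A3 (8.49 to 9.02). The endothelial cadherin CDH5 (7.75 to 8.72), ARAP3 (7.0 to 7.82), SEC31B (6.47 to 6.81) and CYP3A46 (5.20 to 9.03) followed on static arrays. Static arrays divided by number for MMP1, with 12.17 to 12.37 on arrays 1 to 3 and 7.39 to 9.78 on arrays 4 to 6. The 28S values divided alike, with 5.32 to 5.72 on static arrays 1 to 3 and 6.49 to 6.93 on 4 to 6. The cause of this division was not tested. In the other direction, under 4 on all static arrays, were ISLR, a secreted immunoglobulin-like and leucine-rich repeat protein (9.12 to 9.83 on stretched arrays), THBS3, a thrombospondin (7.85 to 9.29), S100A1, a calcium-binding protein (6.35 to 8.90), and ACAN, the large proteoglycan aggrecan (5.54 to 9.03). The tetraspanin TSPAN7 (6.76 to 8.20), ALS2CL (6.04 to 8.16), FAM84A (5.32 to 8.45) and the lipocalin APOD (5.74 to 8.25) completed this set on stretched arrays. All 16 genes were called by limma, with adjusted p of at most 9.87e-05. Other probe sets of ACAN, CDH5 and FAM84A, dim in both groups, did not pass the test.

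**Figure D2:**
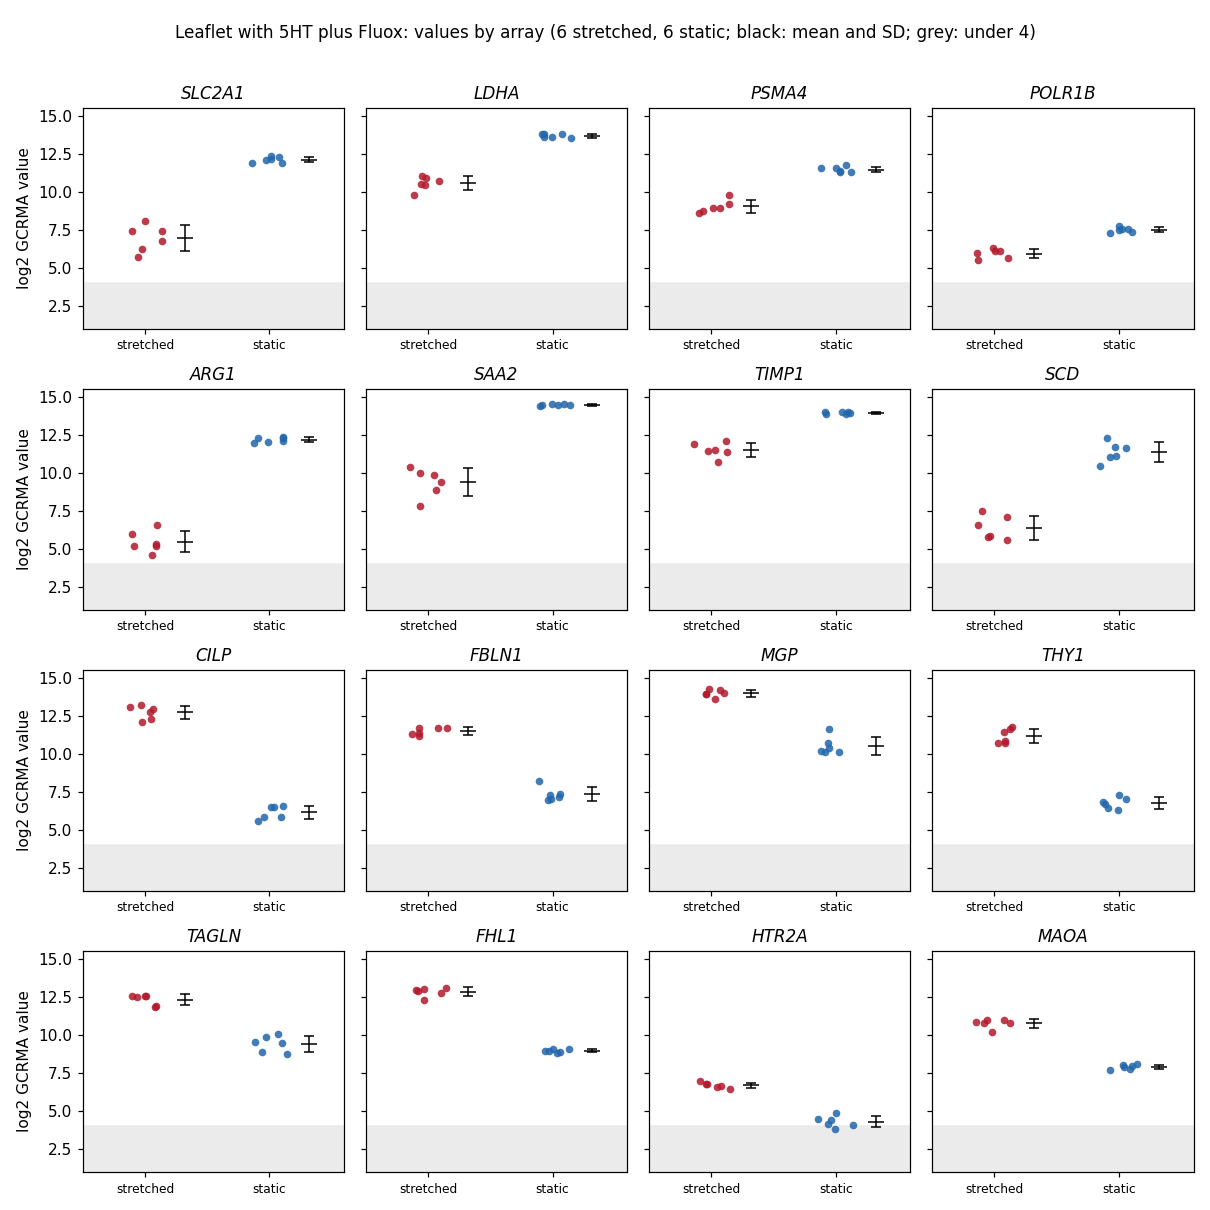
Log2 GCRMA values of 16 genes on each array with 5HT plus Fluox, stretched (red, n = 6) left of static (blue, n = 6), with mean and SD in black and values under 4 shaded grey. The upper 8 genes were lower and the lower 8 higher in stretched tissue, and no stretched array overlapped a static array in any of them.

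Genes of glucose uptake, glycolysis and lactate export were lower in stretched tissue almost throughout. Of 18 measured members 17 fell and none rose, against 33.1% and 21.6% of all genes, and the median change was -2.47 log2 (5.55-fold lower), against -0.13 for all genes. SLC2A1, the main glucose importer of most cells, read 5.74 to 8.10 in stretched tissue (median 7.08), against 11.90 to 12.34 in static tissue (median 12.14), a change of -5.18 (SE 0.42, limma adjusted p = 1.53e-08). HK1, the hexokinase that traps glucose, read 6.60 to 7.75 in stretched tissue (median 7.03), against 10.12 to 10.58 in static tissue (median 10.41), a change of -3.30 (SE 0.17, adjusted p = 4.85e-11). Neither gene overlapped between the groups. LDHA, which makes lactate from pyruvate, changed by -3.11 (SE 0.26), and its stretched values of 9.80 to 11.04 remained well above the bottom, against 13.54 to 13.81 in static tissue. PFKM, the muscle phosphofructokinase, was the 1 member not called (-0.26). With the covariate 16 members fell, and the median was -1.78.

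Other hypoxia-inducible genes fell less evenly: of 15 measured members 10 fell and 2 rose (median -1.45). The oxygen sensor EGLN1, which marks hypoxia-inducible factors for destruction, changed by -1.90 (SE 0.19, limma adjusted p = 2.58e-07). Its values were 8.77 to 9.68 on stretched arrays and 10.84 to 11.19 on static arrays. BNIP3L, which targets mitochondria for removal, changed by -1.77 (SE 0.21), and ERO1A, an oxidase of protein folding, by -1.45 (SE 0.17). In none of these 3 genes did the groups overlap. VEGFA, the main angiogenic growth factor, read 6.78 to 10.81 in stretched tissue, against 11.82 to 12.74 in static tissue, a change of -2.91 (SE 0.73, adjusted p = 0.00286). With the 3′ to 5′ covariate its change was -0.10 (adjusted p = 0.958), and of its 3 other probe sets 2 were called lower (-2.86 and -2.34) and 1 was not (-0.62). LOX, which cross-links collagen and elastin, went the other way with 2.96 (SE 0.40, adjusted p = 7.43e-06). With the covariate 5 members fell and 1 rose (median -0.52).

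Subunits of the respiratory chain were called less often than all genes in both directions. Of 45 measured subunits of oxidative phosphorylation 8 rose and 10 fell, against 21.6% and 33.1% of all genes. Their median was -0.12, near the -0.13 of all genes, and was 0.22 when arrays were centred on brighter probe sets. Of the changes called 5 reached 2-fold. SDHA, the flavoprotein of succinate dehydrogenase, had the largest fall (-1.91, SE 0.35, limma adjusted p = 0.000219). ATP5E, a small subunit of the ATP synthase, read 12.21 to 12.76 on stretched arrays and 11.36 to 11.87 on static arrays, a change of 0.82 (SE 0.13) that was -0.43 when arrays were centred on the hybridisation spikes. In the citric acid cycle and fatty acid oxidation 11 of 33 genes fell and 3 rose (median -0.31), a share of falls near the 33.1% of all genes. Citrate synthase CS changed by -1.58 (SE 0.24, adjusted p = 2.31e-05), the lipoamide dehydrogenase DLD by -1.25 (SE 0.21) and ACADS, the short-chain acyl-CoA dehydrogenase, by -3.21 (SE 0.41). ETFB, which passes electrons from fatty acid oxidation to the respiratory chain, rose by 2.31 (SE 0.42, adjusted p = 0.000163). With the covariate 3 of these 33 genes fell and 1 rose, with a median of 0.02.

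Lipid synthesis genes were lower where they were called, and lysosomal genes were called lower more often than higher. Of 18 genes of sterol synthesis and fatty acid synthesis and desaturation 12 fell and none rose (median -1.22). SCD, which puts the first double bond into saturated fatty acids, read 5.58 to 7.47 in stretched tissue (median 6.21), against 10.45 to 12.32 in static tissue (median 11.37), a change of -4.99 (SE 0.45, limma adjusted p = 4.84e-08). The desaturase FADS1 changed by -3.45 (SE 0.42), the sterol desaturase SC5D by -2.57 (SE 0.41) and NSDHL, another enzyme of cholesterol synthesis, by -1.79 (SE 0.28). With the covariate 6 of the 18 fell (median -0.93). Of 29 lysosomal enzymes and proton pump subunits 13 fell and 3 rose (median -0.43). The cathepsins CTSC (-3.31, SE 0.37) and CTSH (-1.62, SE 0.16) fell with no overlap between groups, and all 4 probe sets of CTSC were called lower. CTSS, a cathepsin of antigen-presenting cells, changed by -2.42 (SE 0.44), and by -1.74 with the covariate (adjusted p = 0.0659).

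Subunits of the proteasome, the complex that degrades ubiquitin-tagged proteins, were lower almost without exception. Of 30 measured subunits 29 fell and none rose, and the median change was -1.47 log2 (2.76-fold lower). PSMA4, a subunit of the core ring, read 8.62 to 9.82 in stretched tissue (median 8.95), against 11.28 to 11.73 in static tissue (median 11.47), a change of -2.41 (SE 0.32, limma adjusted p = 7.11e-06). PSMA6, another core subunit, changed by -1.96 (SE 0.31), and PSMD3, a subunit of the regulatory cap, by -3.04 (SE 0.50). PSME1 and PSME2, both parts of an interferon-induced activator of the proteasome, changed by -2.19 (SE 0.45) and -2.08 (SE 0.57). PSMB6 was the 1 subunit not called (-0.40). In 28 of the 30 subunits every stretched array lay below every static array. The 3′ to 5′ covariate left 2 subunits with an adjusted p under 0.05 and a median of -0.74; without the arrays of high 3′ to 5′ difference 28 fell and the median was -1.42.

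Ribosome biogenesis genes were also lower, whereas the ribosomal proteins were not shifted as a group. Of 27 measured genes of ribosome biogenesis 14 fell and 1 rose (median -1.06). POLR1B, a large subunit of RNA polymerase I, read 5.54 to 6.28 in stretched tissue (median 6.04), against 7.29 to 7.78 in static tissue (median 7.52), a change of -1.56 (SE 0.25, limma adjusted p = 5.62e-05). RRS1, an assembly factor of the large subunit, changed by -2.26 (SE 0.52) and the nucleolar protein NOL6 by -3.02 (SE 0.84), with no overlap between the groups. UTP15, a factor of the small subunit, rose by 1.66 (SE 0.38, adjusted p = 0.00126). With the covariate the median was 0.07, with 3 genes higher and 1 lower, and POLR1B kept its call (-1.38, adjusted p = 0.0165) while RRS1, NOL6 and UTP15 did not. Second probe sets of POLR1B (0.58) and NOL6 (0.05) were not called. Of 58 cytosolic ribosomal proteins 15 rose and 13 fell, with a median of 0.02 log2 that was -1.23 when arrays were centred on the hybridisation spikes and 0.36 when they were centred on brighter probe sets. RPL37 was among the lower ones (-1.02, SE 0.16) and RPL4 fell by 0.44 (SE 0.08).

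Genes of protein folding in the endoplasmic reticulum and of antioxidant defence were lower, and the heat shock genes went both ways. Of 19 genes of the unfolded protein and amino acid response 11 fell and none rose (median -0.73). SDF2L1, an endoplasmic reticulum chaperone cofactor, read 3.93 to 5.37 in stretched tissue (median 4.55), against 7.72 to 9.78 in static tissue (median 8.73), a change of -4.06 (SE 0.58, limma adjusted p = 1.5e-05). The disulfide isomerase PDIA4 changed by -1.31 (SE 0.14) at its brightest probe set, and by -3.40 and -4.16 at 2 dimmer ones. With the covariate 5 of these genes fell and 4 rose (median -0.37). Of 23 antioxidant and metallothionein genes 11 fell and 1 rose (median -0.89), and with the covariate 1 fell and 1 rose (median 0.03). Glutathione reductase GSR changed by -2.02 (SE 0.29) at its brightest probe set, but 2 dimmer probe sets were called higher (1.27 and 0.95). The mitochondrial superoxide dismutase SOD2 read 11.39 to 13.22 on stretched arrays and 14.26 to 14.56 on static arrays, a change of -1.86 (SE 0.37). Catalase, CAT, was the exception with a rise of 2.67 (SE 0.40, adjusted p = 2.57e-05). Of 26 heat shock proteins and chaperones 10 rose and 4 fell, with a median of 0.26 that was -1.0 when arrays were centred on the spikes. HSPB6, a small heat shock protein of muscle, rose by 3.04 (SE 0.26, adjusted p = 2.64e-08), DNAJB1 by 2.42 (SE 0.48) and the strictly inducible HSPA6 by 3.30 (SE 0.67). The groups overlapped for DNAJB1 (11.99 to 13.35 on stretched and 9.09 to 12.07 on static arrays) and HSPA6 (10.18 to 13.01 and 6.86 to 11.17). Static arrays 4 to 6 lay above static arrays 1 to 3 for both genes.

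Inflammatory genes were called lower about as often as all genes, but several single members were far lower in stretched tissue. Of 32 cytokines, chemokines and adhesion genes 11 fell and 3 rose (median -0.69), near the 33.1% of all genes that fell, and the 3 that rose, IL7, NFKB1 and TNF, had means under 5 in both groups. CCL5, a chemokine for T cells, read 3.29 to 6.39 in stretched tissue (median 4.00), against 8.44 to 9.29 in static tissue (median 8.97), a change of -4.36 (SE 0.74, limma adjusted p = 9.35e-05). PTGES, which makes prostaglandin E2, read 6.46 to 8.55 in stretched tissue (median 7.91), against 10.67 to 11.88 in static tissue (median 11.16), a change of -3.43 (SE 0.46, adjusted p = 6.17e-06). Both genes had no overlap between the groups, and stretched arrays were the more spread ones. The neutrophil chemokine CXCL8 changed by -2.95 (SE 0.85), the cyclooxygenase PTGS2 by -1.60 (SE 0.40) and the monocyte chemokine CCL2 by -1.27 (SE 0.34). IL6 read 6.00 to 12.29 on stretched arrays (median 12.11) and 12.27 to 13.45 on static arrays (median 12.42), and its change was -2.54 (SE 1.04, adjusted p = 0.0452), with 5 of 6 stretched arrays below every static array and a call that was lost without the arrays of high 3′ to 5′ difference. With the 3′ to 5′ covariate the values were -0.16 for CXCL8, -0.12 for PTGS2, 0.10 for CCL2 and 1.72 for IL6 (adjusted p = 0.949, 0.909, 0.893 and 0.23 in that order), and CCL5 lost its call too. ARG1 kept its call with the covariate (-5.19, adjusted p = 0.00746).

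Of 21 interferon-induced genes 10 fell and 1 rose (median -1.31). TAP1, the peptide transporter for antigen presentation, read 7.18 to 10.16 in stretched tissue (median 8.42), against 10.08 to 12.68 in static tissue (median 11.30), a change of -2.64 (SE 0.60, limma adjusted p = 0.00142), while its other 2 probe sets were not called (-0.25 and 0.03). PSMB8, an immunoproteasome subunit, changed by -2.57 (SE 0.61). In both genes, as in GBP1, the groups overlapped, and the static arrays themselves were spread over more than 2 log2. EIF2AK2, the kinase that senses double-stranded RNA, was the 1 gene called higher (0.56, SE 0.18), and it read -0.69 when arrays were centred on the spikes. With the covariate 1 interferon-induced gene fell and none rose, with a median of -0.03.

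**Figure D3:**
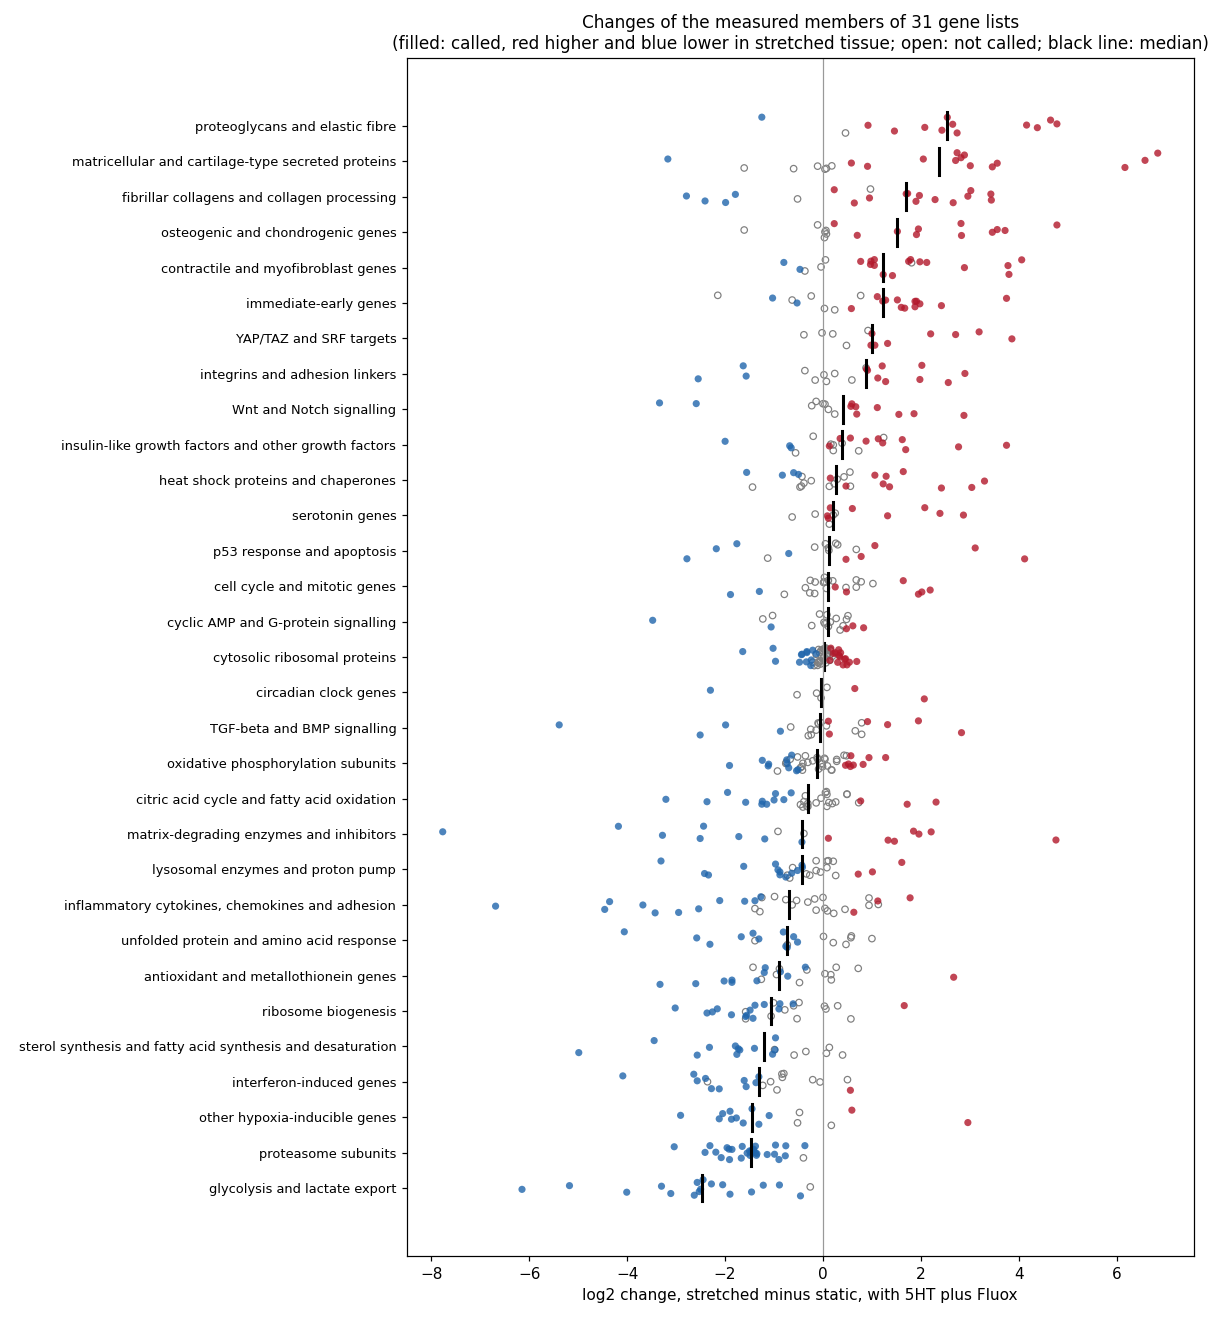
Log2 changes, stretched minus static with 5HT plus Fluox, of the measured members of each gene list, ordered by the list's median (black line). Filled points were called by limma (red higher, blue lower in stretched tissue) and open points were not; the medians run from -2.47 for glycolysis and lactate export to 2.54 for proteoglycans and elastic fibre.

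Matrix genes were among the most widely raised. Of 13 proteoglycans and elastic fibre genes 11 rose and 1 fell, with a median change of 2.54 log2 (5.83-fold higher). BGN, the small proteoglycan biglycan, read 12.04 to 12.70 in stretched tissue (median 12.29), against 9.35 to 9.75 in static tissue (median 9.56), a change of 2.74 (SE 0.23, limma adjusted p = 2.75e-08). FBLN1, which binds elastic fibres and basement membranes, read 11.18 to 11.73 in stretched tissue (median 11.53), against 6.97 to 8.24 in static tissue (median 7.22), a change of 4.16 (SE 0.38, adjusted p = 5.99e-08). Stretched arrays of both genes lay in a narrow band above every static array. LUM, the collagen-spacing proteoglycan lumican, changed by 2.54 (SE 0.27), while HAPLN1, which ties proteoglycans to hyaluronan, fell (-1.25, SE 0.45, adjusted p = 0.0251). With the 3′ to 5′ covariate 8 of the 13 rose (median 2.39), and HAPLN1 lost its call.

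Of 20 matricellular and cartilage-type secreted proteins 13 rose and 1 fell (median 2.38), and the same counts were found with the covariate (median 2.26). C1QTNF3, a secreted protein of cartilage, read 10.17 to 11.80 in stretched tissue (median 11.33), against 4.10 to 5.58 in static tissue (median 5.34), with a limma adjusted p of 6.87e-11. SPARCL1, a relative of the matricellular protein SPARC, changed by 2.74 (SE 0.26), and COMP, a thrombospondin of cartilage and tendon, by 3.56 (SE 0.52, with 3.61 at its other probe set). CHI3L1, a chitinase-like glycoprotein of inflamed tissue, fell (-3.17, SE 0.62, adjusted p = 0.000348).

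Collagen genes divided. Of 19 fibrillar collagens and collagen-processing genes 13 rose and 4 fell (median 1.70, and 0.86 with the covariate). COL5A1, which sets the diameter of collagen fibrils, read 10.25 to 11.31 in stretched tissue (median 10.63), against 8.71 to 9.46 in static tissue (median 8.95), a change of 1.70 (SE 0.18, limma adjusted p = 4.13e-07). COL6A2, of the beaded microfibrils, changed by 3.02 (SE 0.37), COL15A1 of the basement membrane zone by 3.43 (SE 0.51) and the cross-linking enzyme LOXL1 by 3.44 (SE 0.48). COL3A1, a fibrillar collagen of distensible tissues, went down to 4.65 to 5.54 on stretched arrays (median 5.05), against 6.49 to 8.73 on static arrays (median 8.13), a change of -2.79 (SE 0.40, adjusted p = 1.42e-05). PLOD1, which hydroxylates collagen lysines before cross-linking, fell as well (-2.41, SE 0.31, with -3.71 at its other probe set). COL1A1 was not among the annotated genes.

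Enzymes that degrade matrix and their inhibitors also divided, with 8 of 17 lower and 7 higher (median -0.43). Besides MMP1, the gelatinase MMP9 read 2.56 to 4.25 in stretched tissue (median 3.61), against 7.36 to 8.20 in static tissue (median 7.76), a change of -4.18 (SE 0.81, limma adjusted p = 0.000342). MMP14, the membrane-bound collagenase, read 4.97 to 6.19 in stretched tissue (median 5.81), against 7.73 to 8.70 in static tissue (median 8.17), a change of -2.51 (SE 0.30, adjusted p = 1.86e-06). MMP3, the protease stromelysin, was lower at 2 of its 4 probe sets (-3.28 and -4.29) and not called at the others. The inhibitors went in opposite directions. TIMP1 read 10.74 to 12.09 in stretched tissue, against 13.87 to 14.02 in static tissue, a change of -2.44 (SE 0.26). TIMP3, the inhibitor that is bound to matrix, rose to 8.71 to 9.35 in stretched tissue, against 3.54 to 4.48 in static tissue (change 4.76, SE 0.34, adjusted p = 2.71e-09), and TIMP2 changed by 2.21 (SE 0.28). With the covariate 5 of the 17 fell and 3 rose, and MMP3 lost its call.

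Contractile and load-responsive genes were higher in stretched tissue, relative to the typical gene. Of 21 contractile and myofibroblast genes 15 rose and 2 fell, with a median of 1.23 log2 that was -0.02 when arrays were centred on the hybridisation spikes. TAGLN, an actin-binding protein of smooth muscle, read 11.87 to 12.59 in stretched tissue (median 12.50), against 8.76 to 10.07 in static tissue (median 9.51), a change of 2.89 (SE 0.34, limma adjusted p = 1.21e-06). ACTA2, the actin that marks myofibroblasts, read 9.08 to 10.68 in stretched tissue (median 10.18), against 5.39 to 7.05 in static tissue (median 6.43), a change of 3.80 (SE 0.68, adjusted p = 0.000163). Neither gene overlapped between the groups. Tropomyosin TPM1 changed by 3.78 (SE 0.43) and calponin CNN1 by 4.06 (SE 0.50), while talin TLN1, which links integrins to actin, was lower (-0.80, SE 0.28, adjusted p = 0.023). The other probe set of TLN1 was not called (0.04, limma adjusted p = 0.919). TLN1 also lost its call after quantile normalization, when centred on brighter probe sets and without arrays of high 3′ to 5′ difference. With the 3′ to 5′ covariate 11 of the 21 rose and none fell (median 1.49).

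Of 13 targets of YAP/TAZ and SRF, the transcription factors that answer to cytoskeletal tension, 8 rose and none fell, with a median of 1.00 that was -0.25 when arrays were centred on the spikes. FHL1, a muscle LIM protein, read 12.29 to 13.11 in stretched tissue (median 12.91), against 8.84 to 9.10 in static tissue (median 8.97), a change of 3.86 (SE 0.35, limma adjusted p = 6.32e-08). CYR61, a matricellular protein, changed by 2.71 (SE 0.29) and CRIM1 by 2.2 (SE 0.19). Integrins and adhesion linkers had 9 of 19 higher and 3 lower, with a median of 0.88 that was -0.37 when arrays were centred on the spikes. The integrin ITGB5 rose by 2.90 (SE 0.49), caveolin CAV1 by 2.56 (SE 0.32) and laminin LAMB2 by 2.02 (SE 0.26), whereas the integrin ITGAV fell (-1.57, SE 0.28, adjusted p = 0.000157). With the covariate 7 of the 13 tension targets and 4 of the 19 adhesion genes rose, none of either list fell, and ITGAV lost its call.

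Immediate-early genes, which are normally transcribed within minutes of a stimulus, were higher after 24 h of culture in 13 of 21 cases, with 2 lower and a median of 1.22 that was -0.03 when arrays were centred on the spikes. JUN, a subunit of the factor AP-1, read 10.86 to 11.5 in stretched tissue (median 11.02), against 7.55 to 9.25 in static tissue (median 8.76), a change of 2.42 (SE 0.24, limma adjusted p = 1.45e-07). IER2 changed by 1.88 (SE 0.16), the factor KLF4 by 1.91 (SE 0.22), the nuclear receptor NR4A2 by 1.98 (SE 0.27) and FOS, the partner of JUN, by 1.67 (SE 0.27). IER3, an immediate-early gene of cell survival, was lower (-1.03, SE 0.33, adjusted p = 0.0147) and read 0.08 with the 3′ to 5′ covariate. With that covariate 12 of the 21 rose and none fell (median 1.59). Of 17 genes of the p53 response and apoptosis 5 rose and 4 fell, beside 21.6% and 33.1% of all genes. The stress sensors GADD45A and GADD45G rose by 3.11 (SE 0.31) and 4.12 (SE 0.54), and the death receptor FAS fell (-2.78, SE 0.41).

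Genes of bone and cartilage formation were higher where they were called. Of 17 osteogenic and chondrogenic genes 11 rose and none fell (median 1.52, and 1.23 with the covariate, when 8 rose). MGP, an inhibitor of calcification, read 13.58 to 14.25 in stretched tissue (median 13.98), against 10.10 to 11.62 in static tissue (median 10.28), a change of 3.46 (SE 0.39, limma adjusted p = 9.78e-07). SPARC, a collagen-binding glycoprotein of bone, read 14.08 to 14.54 in stretched tissue (median 14.43), against 10.64 to 12.07 in static tissue (median 11.64), a change of 2.82 (SE 0.27, adjusted p = 8.36e-08). The homeobox factor DLX5 was under 4 on every static array and read 6.24 to 7.91 on stretched arrays. BMP4, a bone morphogenetic protein, changed by 2.83 (SE 0.27, adjusted p = 1.14e-07). The groups were apart for all 4 genes.

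Of 22 genes of TGF-beta and BMP signalling 6 rose and 4 fell (median -0.07), beside 21.6% of all genes called higher and 33.1% lower. ACVR1B, a type I receptor for activin, read 3.42 to 6.23 in stretched tissue (median 4.25), against 9.13 to 10.16 in static tissue (median 9.92), a change of -5.39 (SE 0.43, limma adjusted p = 1.17e-08). ID2, a target of BMP signals, fell too (-2.51, SE 0.35). Wnt and Notch genes had 8 of 16 higher and 2 lower, with a median of 0.41 that was -0.85 when arrays were centred on the spikes. The secreted Wnt inhibitor SFRP1 rose by 2.88 (SE 0.42), the Notch target HES1 by 1.86 (SE 0.24), and the Wnt receptor FZD4 fell (-3.34, SE 0.50). Among growth factors 10 of 21 genes rose and 3 fell, with a median of 0.39 that was -0.86 when arrays were centred on the spikes. IGF1 read 6.27 to 9.25 on stretched arrays and 4.39 to 5.73 on static arrays, a change of 2.77 (SE 0.59, adjusted p = 0.000816) that was 2.05 with the covariate (adjusted p = 0.126). HBEGF, a ligand of the EGF receptor, was also called higher (adjusted p = 0.00194), with every static value under 4, so that its change is compressed. Its values were 3.22 to 9.12 on stretched arrays and 2.01 to 3.47 on static arrays, and stretched array 5 lay inside the static range.

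Cell cycle, clock and cyclic AMP genes were mostly not called, beside 21.6% of all genes called higher and 33.1% lower. In the cell cycle list 6 of 25 genes rose and 2 fell (median 0.11): AURKA, a mitotic kinase, rose by 2.02 (SE 0.40) and cyclin CCND2 by 1.95 (SE 0.34), and CDK2 fell (-1.89, SE 0.28). AURKA lost its call with the 3′ to 5′ covariate. Of 7 clock genes CRY2, a repressor of the clock, rose by 2.07 (SE 0.25, limma adjusted p = 1.56e-06), PER1 was called higher (0.65, SE 0.24) and BHLHE40 lower (-2.30, SE 0.56). PER1 read -0.60 when arrays were centred on the spikes, and BHLHE40 read -0.08 with the covariate. Of 20 genes of cyclic AMP and G-protein signalling 3 rose and 2 fell. RGS4, which switches off G-protein signals of serotonin and other receptors, read 6.42 to 9.65 on stretched arrays and 10.86 to 12.23 on static arrays (change -3.48, SE 0.68, adjusted p = 0.00035), and it lost its call with the covariate, as did the kinase subunit PRKACA (-1.06, SE 0.20).

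Of the genes through which the agents act, the receptors HTR2A and HTR2B and the degrading enzymes MAOA and MAOB were measurable and were called higher in stretched tissue. Of 13 measured serotonin genes 8 were called higher and none lower, but only 5 reached a mean of 5 in either group, and the median of 0.21 was -1.04 when arrays were centred on the spikes. HTR2A read 6.45 to 6.95 in stretched tissue (median 6.69), against 3.81 to 4.87 in static tissue (median 4.28), a change of 2.39 (SE 0.23, limma adjusted p = 9.35e-08). Its static values reached down to the bottom of the scale, where differences are compressed. HTR2B read 8.17 to 9.75 in stretched tissue (median 8.61), against 6.08 to 7.29 in static tissue (median 6.62), a change of 2.08 (SE 0.39, adjusted p = 0.000249), and a second probe set gave 2.03. For both receptors every stretched array lay above every static array. MAOA, which breaks down serotonin, read 10.21 to 10.98 in stretched tissue (median 10.84), against 7.71 to 8.06 in static tissue (median 7.91), a change of 2.87 (SE 0.28, adjusted p = 1.67e-07), while the related MAOB changed by 1.32 (SE 0.42, adjusted p = 0.0131) with 1 stretched array inside the static range. The transporter SLC6A4, the target of fluoxetine, read 2.77 to 3.09 on stretched arrays and 2.59 to 3.00 on static arrays, near the bottom in both groups, and was not called. HTR2B and MAOB lost their calls with the 3′ to 5′ covariate (adjusted p = 0.19 and 0.471 in that order).

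The labelled tissue was checked against markers of its cells. All 12 measured interstitial cell and fibroblast markers exceeded 4 on at least 1 array, and their summed linear level was 55088 to 64366 on stretched arrays and 10479 to 18824 on static arrays. Of these markers 9 rose and 2 fell. Vimentin VIM read 14.09 to 14.46 in stretched tissue, against 11.66 to 12.30 in static tissue (change 2.33, SE 0.22, limma adjusted p = 7.57e-08). Decorin DCN, a collagen-binding proteoglycan, changed by 2.08 (SE 0.21). COL3A1 was among the 2 that fell (-2.79), which the summed level does not show. Of 15 endothelial markers 8 fell and none rose (median -1.14), and their summed level was 605 to 997 on stretched arrays and 2508 to 3919 on static arrays. CLDN5, EGFL7, ESAM, KDR, NOS3 and TIE1 were under 4 on all 12 arrays. The endothelial receptor TEK changed by -3.70 (SE 0.44, with 2 dim probe sets not called), the co-receptor ENG by -2.43 (SE 0.23), and the junction protein PECAM1 (-2.18, SE 0.46) lost its call with the covariate. The adhesion molecule ICAM2 was called lower with stretched values of 3.07 to 3.36, near the bottom of the scale, against 5.58 to 7.18 in static tissue. With the covariate 6 of the 15 fell. The part of fewer endothelial cells in the other falls was not tested.

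Of 15 leukocyte markers 5 fell, near the share of all genes, and 2 rose (median 0.00), with a summed level of 439 to 1561 on stretched arrays and 982 to 1701 on static arrays, which overlap. The 2 that rose had means under 5 in both groups. The macrophage factor SPI1 was called lower (limma adjusted p = 3.04e-06), with stretched values of 2.51 to 3.71 near the bottom of the scale. Lower as well were the integrin ITGB2 (-2.46, SE 0.34) and the adaptor TYROBP (-1.32, SE 0.32), while CD3E, CD4 and ITGAM were under 4 throughout. Their part in the lower inflammatory genes was not tested. Of 7 smooth muscle markers 5 rose and none fell, with a summed level of 6486 to 10872 on stretched arrays and 1170 to 1727 on static arrays, and ACTG2, an enteric and vascular actin, changed by 1.98 (SE 0.27). These markers are also genes of the myofibroblast state, so that the 2 cannot be told apart here. Of 10 cardiac muscle markers CKM, MYH7, MYL2, NPPA, NPPB, TNNI3 and TNNT2 were under 4 on all 12 arrays, and TTN, the giant sarcomere protein, was called higher (0.98, SE 0.33). The erythrocyte gene HBB and the platelet gene PPBP were called lower (-0.87 and -0.96), no adipocyte marker was called, and CDH1, KRT8, KRT18 and KRT19 of epithelium were under 4 on all 12 arrays.

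The last comparison asks whether the stretch difference was another one when the agents were present. The stretch difference with agents and the one without agents share no array, and their interaction is fitted from all 24. Limma called 0 of 23999 probe sets for the interaction (0%), with a smallest adjusted p of 0.54 and 1791 probe sets (7.46%) at an unadjusted p under 0.05. Of the probe sets called higher with agents 72.2% were also called higher without them, and 69.4% the other way round. Of those called lower 74.3% were also lower without agents and 76.9% the other way round, and 2 probe sets were called in opposite directions. Without stretched array 1 without agents, 79.4% of the probe sets higher with agents and 84.7% of those lower were also called without agents. The other way round the shares were 64.3% and 76.8%. Calls without agents then numbered 8399 higher and 6323 lower, against 7067 and 5533 with all arrays. The fit with array weights gave 2174 interaction calls, and the fit without arrays of high 3′ to 5′ difference gave 2. Leaving out stretched array 2 with agents gave 2 calls, leaving out stretched array 5 with agents or stretched array 4 or 5 without agents gave 1 each, and any other array 0. No difference between the responses with and without agents is therefore called for any gene by the test used here, and the values that follow are a description.

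The 4 genes of smallest interaction p were DCAF13, CD82, INPPL1 and P3H4. DCAF13, a nucleolar factor of small-subunit assembly, read 6.46 to 7.28 in stretched tissue (median 7.06), against 7.60 to 8.24 in static tissue (median 7.71); its stretch change was -0.88 with agents and 0.51 without (interaction -1.39, SE 0.30, limma adjusted p = 0.54). The tetraspanin CD82 changed by -0.99 with agents and -3.24 without, the phosphatase gene INPPL1 by -0.40 and -1.70, and P3H4, a helper of collagen lysine hydroxylation, by 1.49 and -0.38. When stretched array 1 without agents was left out, the interaction was -1.2 for DCAF13, 2.27 for CD82, 1.17 for INPPL1 and 1.85 for P3H4. The limma adjusted p of each was then 0.829. The ribosome biogenesis list, to which DCAF13 belongs, had a median change of -1.06 with agents and -0.11 without, and 26 of its 27 genes had a lower change with agents than without. The proteasome list had medians of -1.47 with agents and -0.94 without, and 28 of 30 subunits had the lower change with agents; over all genes that share was 50.4%. Genes of the unfolded protein response had medians of -0.73 and -0.31, with 18 of 19 lower with agents. In the other direction, all 13 proteoglycan and elastic fibre genes had the higher change with agents (medians 2.54 with and 1.70 without), as did 18 of 21 contractile genes (1.23 with and 0.52 without). Without stretched array 1 of the group without agents, the medians without agents were -0.41 for ribosome biogenesis, -1.23 for the proteasome, -0.47 for the unfolded protein response, 1.94 for proteoglycans and elastic fibre and 0.75 for contractile genes, nearer to those with agents. The counts were then 25 of 27, 25 of 30 and 18 of 19 lower with agents, against 47.6% of all genes, and 12 of 13 and 17 of 21 higher with agents. The 3′ to 5′ difference was 1.85 to 4.66 on stretched arrays with agents and 0.98 to 3.06 on stretched arrays without. With it as covariate, the median with agents was 0.07 for ribosome biogenesis and -0.74 for the proteasome. The part of RNA quality in these list differences was not tested. Members of a list are not independent, and no test of the shares was made.

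**Figure D4:**
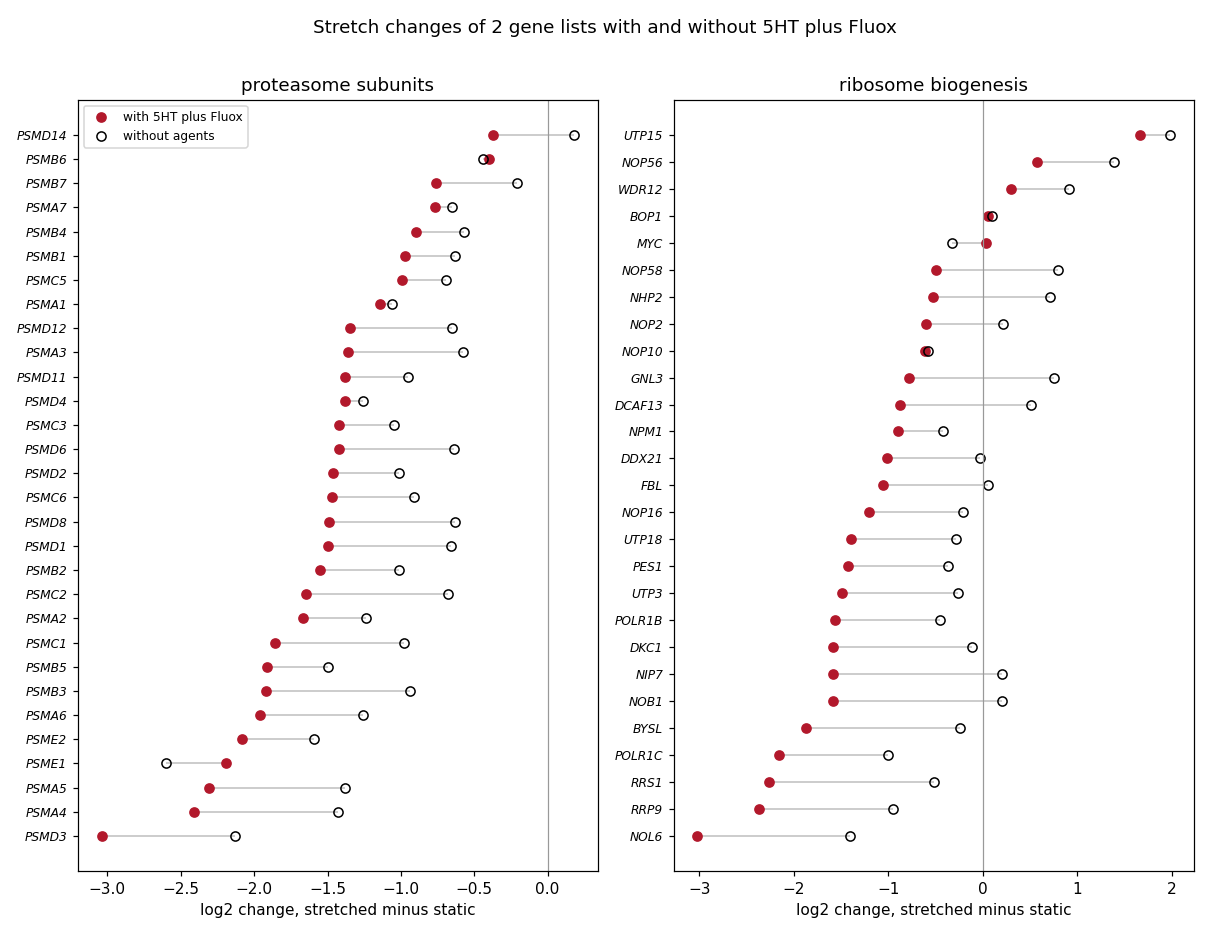
Log2 stretch changes (stretched minus static) of the 30 measured proteasome subunits and 27 ribosome biogenesis genes with 5HT plus Fluox (red) and without agents (open black). Red points lie left of the open ones in 28 of 30 subunits and in 26 of 27 ribosome biogenesis genes, with no single gene called for the difference.

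Values of single genes named above are set side by side here, none of them called for the interaction. ARG1 had a stretch change of -6.69 with agents and -3.26 without (interaction -3.43, SE 1.25), and the interaction was -2.78 without stretched array 1 of the group without agents. LOXL1 changed by 3.44 with agents and 1.28 without (interaction 2.15, SE 0.67), BGN by 2.74 and 1.70 (1.04, SE 0.33) and TIMP1 by -2.44 and -1.40 (-1.05, SE 0.37). With the same array left out, the interaction was 1.92 for LOXL1, 0.8 for BGN and -0.91 for TIMP1. The glycolysis list had a median of -2.47 with agents and -2.23 without (-2.31 with that array left out). HTR2A changed by 2.39 and 1.99 and HTR2B by 2.08 and 2.37, so the receptors' stretch changes lay within 2 SE of each other with and without agents (interaction 0.40, SE 0.32, and -0.28, SE 0.55). Their interactions were 0.21 (SE 0.28) and -0.45 (SE 0.55) with that array left out.

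**Figure D5:**
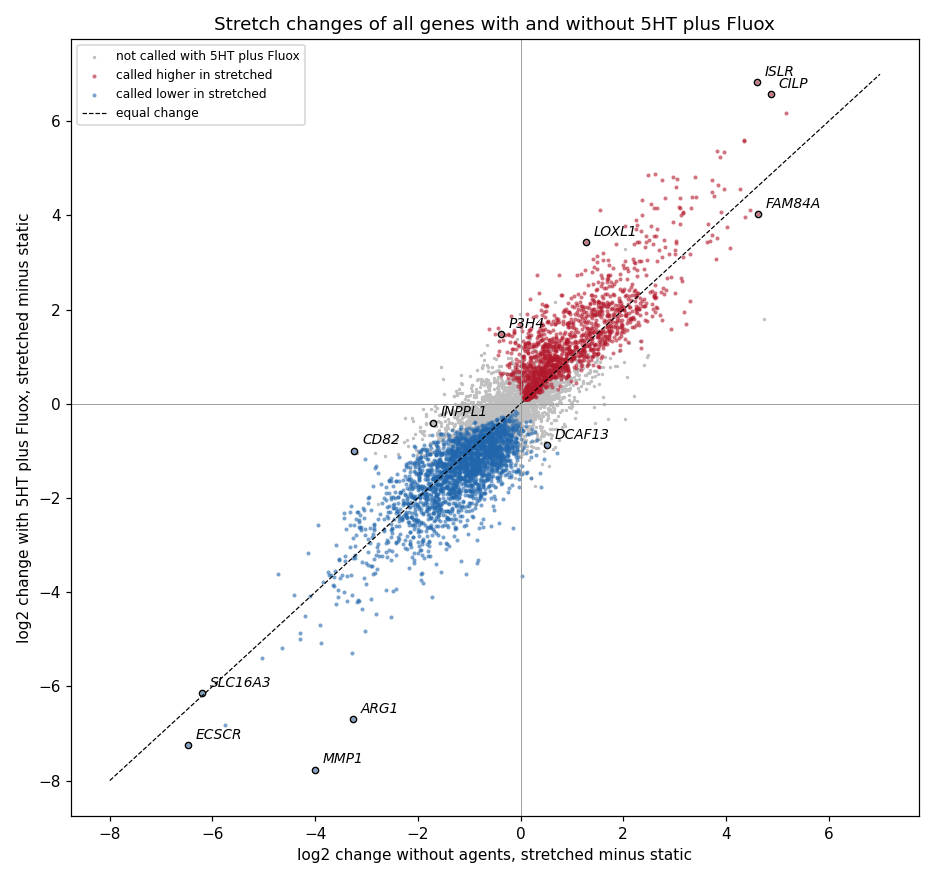
Log2 stretch changes of 6765 genes with 5HT plus Fluox (vertical axis) against those without agents (horizontal axis), red and blue where called with agents; the dashed line marks equal change. Most called genes lie near the line, ARG1 lies below it, MMP1 is near the bottom of the scale in stretched tissue with agents, and DCAF13, CD82, INPPL1 and P3H4 have the smallest interaction p.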

How the data were processed

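Each RNA was read on 1 Affymetrix porcine array. The authors deposited log2 values per probe set, summarised by GCRMA in Partek per the submitters' processing notes, and were used as deposited. The authors' deposited analysis of variance, with p-values (Partek, adjusted by Benjamini-Hochberg, per the file headers) and signed fold changes in a score-like form, served as an alternative only. Of 24123 probe sets 124 controls were left out. Of the rest 10069 carried 1 symbol in the platform annotation, 198 several and 13732 none. A gene is its probe set of highest mean, and other probe sets are given for some genes where they differ.

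Limma fitted the 4 group means over all 24 arrays (version 3.58.1, R 4.3.3, lmFit and eBayes). In simulated data the stretch comparison with agents recovered 34% of shifts of 0.5 log2, 46% of 1, 86% of 2 and 100% of 4. Only 50 probe sets were shifted per size, whereas 12527 were called in the data. The adjustment is then stricter in the simulation, so these shares cannot give the sensitivity of the real comparison. Recovery was not measured for the interaction. The simulated noise was independent between values, so it held no array quality effect shared by probe sets. Calls used a two-sided adjusted p under 0.05 over 23999 probe sets. Array measures were compared by exact permutation (SciPy). Alternatives were the replicate block, trend and robust variances, no moderation, a filter, 3 scalings, array weights, RNA quality, and each array left out. The number of arrays limits the precision.

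Members and gene lists were chosen with earlier results of these data known. Named were the 10 largest rises and falls with means of at least 5, the 8 brightest genes under 4 in the other group, up to 3 members per list with 1 of opposite direction, the 4 of smallest interaction p, and serotonin, actin, collagen and collagenase genes in any case. Chosen after their values were seen were PFKM, PSMB6, IL7, NFKB1, TNF, LDHA, VEGFA, IL6, CXCL8, PTGS2, CCL2, MMP3, MMP9, MGP, COMP, HSPA6, TEK, ICAM2, PECAM1, NOL6, COL15A1, LOXL1, FOS, NR4A2, SC5D, TIMP2, LUM, PSME1, PSME2 and MAOB. Same-numbered stretched and static arrays with agents did not vary together (correlations -0.26 to 0.22), and no pair of the 4 groups had every correlation over 0.1, so numbers were not used as pairs. No sequences were used.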

Additional observations from a re-analysis of the deposited data

Results flagged for a closer look

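Of 360 groups of 6 arrays (180 named genes in stretched and in static tissue with 5HT plus Fluox), 16 (4.44%) held 1 array whose gap to its neighbour exceeded Dixon's 95% critical value for 6 samples, and chance alone marks about 1 in 20 groups.

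Stretched array 5, which had the largest 3′ to 5′ difference, stood apart in 4 genes: ACVR1B was high at 6.23, the chaperone DNAJB11 low at 6.11, the mitochondrial chaperone HSPE1 low at 11.52, and SLC6A4 at 3.09, still near the bottom of the scale. Stretched array 6 was high for ACADS (5.21), ITGB2 (4.51) and PSMA6 (10.27). Stretched array 3 was high for the muscle gene ACTG2 (11.65) and the Wnt inhibitor SFRP1 (11.15), stretched array 1 for ARAP3 (3.27), and stretched array 2 was low for MAOA (10.21). Static array 4 was low for the phosphodiesterase PDE3A (4.57) and WDR37 (10.00) and high for the ribosomal protein RPS15 (12.12). Static array 2 was high for FBLN1 (8.24) and static array 6 low for NOL6 (6.84). For all of these genes except SLC6A4 the difference between stretched and static tissue was called with all 12 arrays in the fit.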

How the results depend on the processing

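Of 178 named calls, 129 kept their direction and an adjusted p under 0.05 with the 3′ to 5′ covariate, 153 when arrays were centred on the hybridisation spikes, 171 when centred on brighter probe sets, 174 after quantile normalization and 173 without arrays of high 3′ to 5′ difference. Leaving out 1 array kept 171 to 177. The covariate runs with stretch, and the cause of the lost calls was not tested. It gave 3721 calls for stretch with agents (1709 higher and 2012 lower) and 5176 without agents. Leaving out probe sets with a mean under 4 gave 3676 higher with agents and 8121 calls without agents, with fewer probe sets tested. Centring on brighter probe sets gave 12518 higher, and on the spikes 925 higher and 17594 lower. Interaction calls were 2174 with array weights and 2 without arrays of high 3′ to 5′ difference, and 0 to 2 with each array left out. With each array left out, calls for stretch with agents ranged from 10949 to 12780 (5660 to 7079 higher and 5283 to 5701 lower), calls without agents from 10141 to 14722, and the 3′ to 5′ difference from 1.42 to 1.98. With the replicate number as a block, 6996 probe sets were higher and 5950 lower, and of the named calls only PPBP was lost. Same-numbered stretched and static arrays with agents did not deviate together (1 of 6 correlations over 0.1). Between the static groups with and without agents 5 of 6 correlations exceeded 0.1 (-0.11 to 0.59), with 3 of 6 arrays correlating best with their own number, and between the stretched groups 4 of 6 exceeded it. No pair of groups had all 6 over 0.1, so the numbers were not taken as pairs, and the block gave 0 interaction calls.

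Directions reversed when arrays were centred on the spikes for ATP5E (-0.43), EIF2AK2 (-0.69), FGF2 (-0.13), PDE3A (-0.43), PER1 (-0.60), PSAP (-0.53), RPS15 (-0.56), SLC6A4 (-1.13), TTN (-0.28) and VCL (-0.27), with the covariate for CCL2 (0.10), HBB (0.01), IER3 (0.08), IL6 (1.72), SLC6A4 (-0.10) and TXNRD1 (0.65), and after quantile normalization for SLC6A4 (-0.06). The authors' deposited table, read at the same threshold, gave 13537 calls (7857 higher and 5680 lower), of which 12406 were shared in the same direction.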

Other observations

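Groups of genes that share the start of their symbol, chosen after their values were seen and given with no test, showed further differences between stretched and static tissue with 5HT plus Fluox, beside a median of -0.13 log2 and 33.1% called lower over all genes. Proteins of the mitochondrial ribosome were lower where they were called: 24 of 36 MRPL genes and 12 of 22 MRPS genes fell and none rose, with medians of -1.17 and -1.18 (-0.69 and -0.82 without agents). Of 11 TIMM genes, which import proteins into mitochondria, 7 fell and none rose (median -1.31). Genes of membrane traffic differed by family: 16 of 21 VPS genes and 11 of 18 SEC genes were called lower and none higher (medians -1.20 and -1.09), 13 of 30 RAB genes were lower and 3 higher (median -0.55), and 3 of 10 TRAPPC genes were lower and 2 higher (median -0.17). Of 28 UBE genes, mostly ubiquitin-conjugating enzymes, 18 fell (median -0.83), and of 16 MED genes, subunits of the Mediator of transcription, 10 fell (median -1.29). Cytochrome P450 genes, with the symbol start CYP, went both ways with 12 of 28 higher and 6 lower (median 0.19).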
